A study of Mus musculus with 16 samples.

Results

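The genes of growth factor, TGF-beta and BMP signalling were chosen by their symbols, as all rows of the deposited expression tables that name a gene of the BMP, GDF, TGF-beta, activin, inhibin, SMAD, latent TGF-beta binding protein, endoglin, FGF, PDGF, VEGF, IGF or angiopoietin families. Pdgfrb was left out of the choice. Of 6515 rows in 3 tables, 56 met it, and they belong to 54 genes. The table of quiescent hepatic stellate cells (qHSCs) held 49 of its 5716 rows, the table of GFP-high activated cells (aHSCs) held 2 of its 231 rows and the table of GFP-intermediate aHSCs held 5 of its 568 rows. Gdf10 was present in the quiescent and the GFP-high table and Pdgfra in the quiescent and the GFP-intermediate table. The choice goes by symbol, so 10 of the 54 genes share a family name but encode no ligand, ligand-binding protein, receptor or SMAD of the families. They are Tgfb1i1, Tgfbrap1, Bmp2k, Igf2bp2, Fgfr1op, Fgf13, Tgfbi, Bmp1, Pdgfrl and Angptl4, and they are counted with the families below.

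RNA had been sequenced from 16 samples of C57/Bl6 mice. The 6 quiescent samples came from 3 uninjured WT1CreERT2;Ai14 animals, in which tamoxifen given at E10.5 switched on the red reporter (RFP) in cells that then expressed WT1, and the RFP-positive (lineage label-positive) and RFP-negative (lineage label-negative) cells of each liver were sorted. The 10 activated samples came from 6 animals given carbon tetrachloride, a hepatotoxin, for 8 weeks. Controls were PDGFRbCre;WT1 +/GFP;Ai14 (3 GFP-high and 2 GFP-intermediate samples) and deleted animals were PDGFRbCre;WT1 fl/GFP;Ai14 (3 and 2 samples). All activated samples were RFP-positive and shared the Cre, the reporter and a GFP allele in place of 1 WT1 copy, so the controls also had only 1 working copy of WT1. The Cre is driven by the Pdgfrb promoter in stellate cells and myofibroblasts and is not inducible, so the deletion was not timed to the injury. One of the GFP-intermediate control samples, which the labels call GFP low, pooled 2 animals. The Wt1 transcript itself was not analysed here, so the deletion was not checked in these values.

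Each table gives 1 FPKM (fragments counted on a transcript, per kilobase of its length and relative to library depth) for each group, computed by the authors from the group's replicates. No spread between animals can therefore be given, the read depth is unknown, and no test was made for any value below. By the authors' methods the tables list genes called different with their adjusted p-value under a limit of 0.05. The presence of a gene and its direction therefore belong to the choice of rows and are given as a description. The deletion tables hold more named rows than the genes that the paper reports as changed after deletion, and the reason is not known. Because FPKM is per length, levels of different genes can be set side by side within a table, whereas tables were scaled separately and levels are not compared between them. For qHSCs, paired values give the label-negative fraction (negative) before the label-positive fraction (positive), and each log2 ratio is positive over negative. In sorted bulk RNA, fewer cells of a type and less RNA per cell cannot be told apart.

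Ligands of the TGF-beta family are dimers that assemble type I and type II receptor kinases, which phosphorylate receptor SMADs, and SMAD6 is an inhibitor induced by the pathway itself. In the liver, TGF-beta is the classical inducer of collagen production by stellate cells and PDGF their classical mitogen, while BMP2 and BMP6 from the sinusoidal endothelium act on hepatocytes to control hepcidin, the iron hormone. VEGF and angiopoietin receptors, with endoglin and ALK1, are best known from endothelial cells, and IGF-binding proteins hold IGF ligands outside the cell.

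Of the 54 genes, 41 had a promoter in the RefSeq set used here (GRCm38.p6), in 51 windows from 250 bases before to 50 bases after a transcription start. Smad6 and the vascular receptors Eng, Flt1 and Tie1 are shown because they are among the high-level genes of the quiescent comparison and their windows hold letters of a SMAD or an ETS motif. Capitals mark GTCTAGAC, the palindromic SMAD-binding element, in Smad6, and AGGAAG, a core of ETS factor sites, or its reverse complement CTTCCT in the others. Sequences run 5′ to 3′ on the strand of the gene from 250 bases before the transcription start to 20 bases after it, where +1 is the first transcribed base, and lie at chr9:64022040-64022309 (minus strand) for Smad6, chr2:32646345-32646614 (plus) for Eng, chr5:147725992-147726261 (minus) for Flt1 and chr4:118489830-118490099 (minus) for Tie1.
Smad6: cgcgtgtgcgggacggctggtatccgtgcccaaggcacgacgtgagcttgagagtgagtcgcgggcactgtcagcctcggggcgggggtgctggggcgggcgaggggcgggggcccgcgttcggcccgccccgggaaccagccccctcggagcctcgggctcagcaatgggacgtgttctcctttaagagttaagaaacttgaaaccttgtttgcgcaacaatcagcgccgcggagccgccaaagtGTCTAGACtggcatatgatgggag
Eng: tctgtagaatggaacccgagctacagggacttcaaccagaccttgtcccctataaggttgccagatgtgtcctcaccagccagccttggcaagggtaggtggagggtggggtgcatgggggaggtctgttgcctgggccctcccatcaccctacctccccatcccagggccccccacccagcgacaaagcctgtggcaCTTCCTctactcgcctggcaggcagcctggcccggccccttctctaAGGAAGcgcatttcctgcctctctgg
Flt1: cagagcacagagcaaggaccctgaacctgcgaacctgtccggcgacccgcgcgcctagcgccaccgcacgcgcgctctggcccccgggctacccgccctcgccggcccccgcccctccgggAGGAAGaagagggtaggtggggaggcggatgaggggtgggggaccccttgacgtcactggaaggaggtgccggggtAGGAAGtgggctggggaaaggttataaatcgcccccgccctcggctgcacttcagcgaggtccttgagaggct
Tie1: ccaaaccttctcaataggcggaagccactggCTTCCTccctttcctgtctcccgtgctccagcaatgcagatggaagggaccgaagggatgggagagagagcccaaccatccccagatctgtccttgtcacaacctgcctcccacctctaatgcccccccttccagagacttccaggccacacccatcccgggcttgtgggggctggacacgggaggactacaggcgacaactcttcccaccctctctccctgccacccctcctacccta

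In Smad6 the palindrome begins at position -4 and spans the transcription start. It was found in 70 of 32851 promoter windows of the mouse set (0.213%) and in Smad6 alone among the 51 windows of the family. AGGAAG, searched on both strands, begins at -52 (reverse strand) and -6 in Eng, at -129 and -53 in Flt1 and at -219 (reverse strand) in Tie1. It was present in 35.4% of all windows, in 23.5% of the family's windows and in 3 of the 5 windows of Eng, Tek, Tie1, Flt1 and Flt4. GGCGCC, a GC-rich SMAD site, was present in 14 of the family's 51 windows (27.5%) against 11.9% of all windows. GCGTGGG, the core bound by WT1 and EGR factors, was present on either strand in 5 of 51 windows (9.80%) against 5.04%. These windows belong to Fgfr3, Ltbp4 and Tgfbr2, so that by gene it was 3 of 41 against 1552 of 27025. It was in none of the 4 windows of genes listed in the deletion tables, which cover only 3 of those genes and are too few to show an absence. CACGTG, an E-box, was present in 5 of 51 windows (9.80%) against 7.15%. These are counts of letters, and binding was not measured.

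In qHSCs most of the family was higher in lineage label-positive cells. Of 49 genes, 37 were higher (75.5%), against 50.4% of all 5716 rows, and 12 were lower, against 49.6%. At a limit of 2-fold, 34 were higher (69.4%, against 37.7% of all rows) and 11 lower (22.4%, against 43.5%). The median log2 ratio of the 49 was 1.37, and that of all rows was 0.59. After subtraction of this 0.59 from every ratio, 13 were at least 2-fold higher and 12 at least 2-fold lower. Only called genes are listed, so this median lies near 0.55, the smallest ratio among all higher rows. It is therefore no measure of a shift in scale between the fractions. Of 133 genes of these families in the GENCODE vM21 annotation, 36.8% had a row in the quiescent table, against 21.9% of all 21992 protein-coding genes. The receptors and receptor partners of the TGF-beta family held 8 of the higher genes, the VEGF and angiopoietin system 7 and the IGF system 6. The lower genes were spread over ligands, the receptors Pdgfra and Igf2r and genes that share only the name. Summed over the 49 genes, FPKM was 2979.8 (negative) and 7887 (positive).

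**Figure D1:**
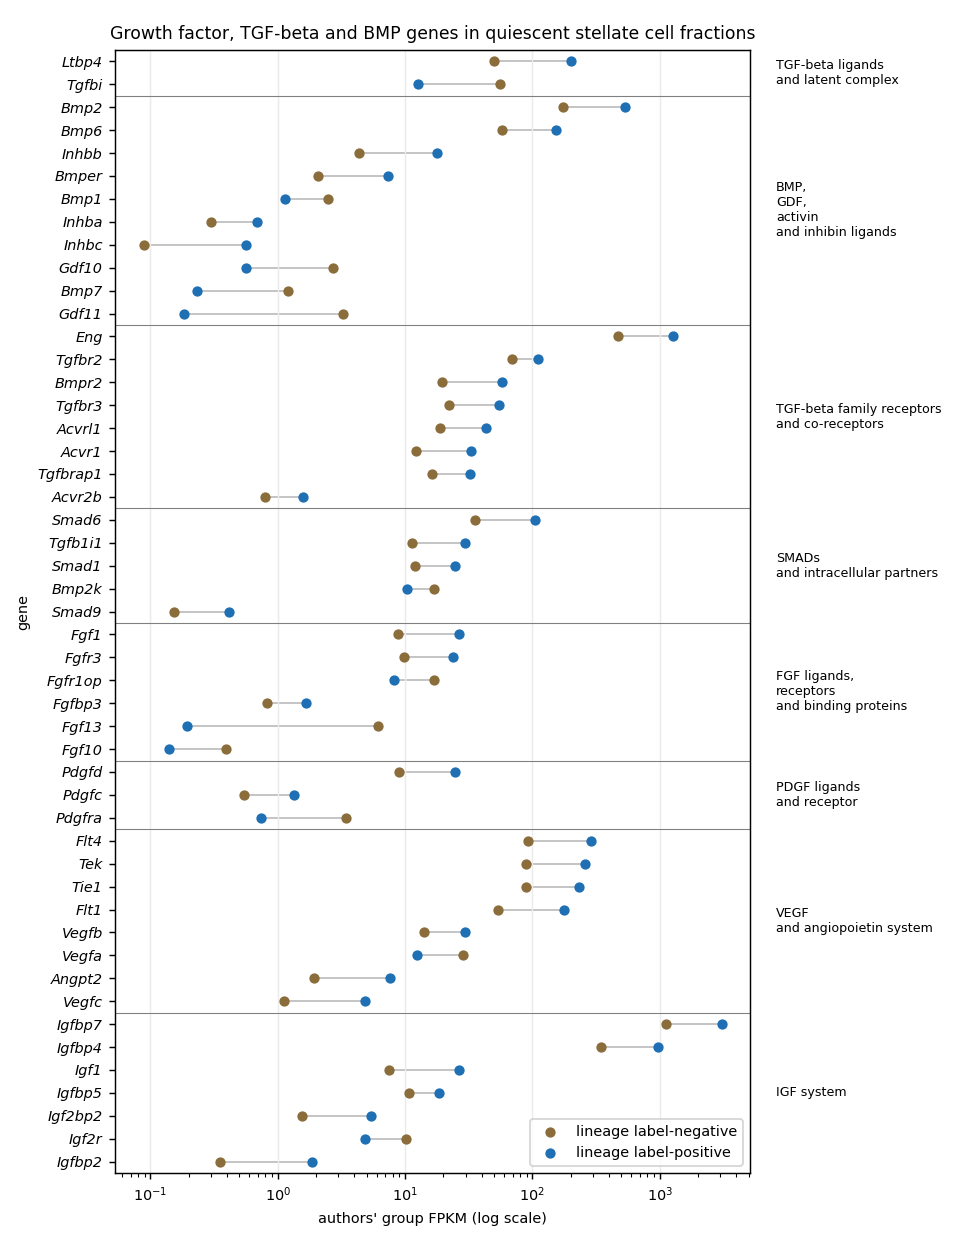
Authors' group FPKM (log axis) of the 49 genes in lineage label-negative (brown) and label-positive (blue) qHSCs, 1 value per group, grouped by role. The blue point lies to the right for 37 genes, among them all 8 receptors and receptor partners of the TGF-beta family. It lies to the left for 12, of which Fgf13 and Gdf11 are the farthest apart.

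The highest ligand of the family was Bmp2 (chr2:133552159-133562885, plus strand, GRCm38), which signals through SMAD1, SMAD5 and SMAD9. Its FPKM was 176 (negative) and 538 (positive), a log2 ratio of 1.61, and it ranked 66 of 5716 rows in the latter. Bmp6 (chr13:38345107-38500302), the other hepcidin-inducing ligand of the sinusoid, was 58.2 and 152 (log2 ratio 1.39). The level of Bmp2 over that of Bmp6 was 3.02 (negative) and 3.53 (positive), so both ligands differed between the fractions by a similar factor. Inhbb, which encodes the beta B subunit of activin B, was much lower at 4.34 and 17.7, with a log2 ratio of 2.03. Ltbp4, a latent TGF-beta binding protein that tethers the inactive ligand to the matrix, was 49.7 and 203 (2.03). The ligands Tgfb1, Tgfb2 and Tgfb3 themselves had no row among the called genes analysed here, which says nothing of their level.

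The BMP and GDF ligands on the other side were all of low level. Gdf11, a relative of myostatin, had an FPKM of 3.25 (negative) and 0.183 (positive) (log2 ratio -4.15). Bmp7, a BMP of epithelia known to oppose TGF-beta, was 1.21 and 0.233 (-2.38). Gdf10, also known as BMP3b, was 2.73 and 0.561 (-2.28). None of the 3 reached an FPKM of 4 in either fraction, and all were below 1 in label-positive cells. Tgfbi, a secreted matrix protein named for its induction by TGF-beta and not a ligand, was higher in level, at 56.2 and 12.7 (-2.15). The remaining genes with a BMP or activin name in the quiescent table had levels from 0.0897 to 7.36. Of these 4, 3 were higher in label-positive cells, and the lower one was Bmp1, which shares only the name.

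All 8 receptors and receptor partners of the TGF-beta family were higher in label-positive qHSCs, with log2 ratios from 0.67 to 1.56 and a median of 1.25, and 6 of the 8 passed 2-fold. Endoglin (Eng, chr2:32646595-32682669, plus strand), the co-receptor for BMP9, BMP10 and TGF-beta on endothelial cells, had an FPKM of 469.8 (negative) and 1262 (positive), where it ranked 11 of all rows. Acvrl1 (ALK1), the type I receptor that endoglin serves, was 19.0 and 43.3 (log2 ratio 1.19). The co-receptor thus stood 24.7 times above ALK1 (negative) and 29.1 times (positive). Bmpr2, the type II receptor for BMPs, was 19.4 and 57.3, the widest ratio of the group at 1.56. Acvr1 (ALK2), a type I receptor used by BMP6, was 12.2 and 32.9 (1.43), and Tgfbr3 (betaglycan), the co-receptor that presents TGF-beta, was 22.2 and 54.9 (1.30).

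The narrowest ratio of the group belonged to Tgfbr2, the type II receptor for TGF-beta itself, at 69.7 (negative) and 111 (positive) (log2 ratio 0.67). Its ratio lay above only 3.92% of those of all rows higher in label-positive cells. Eng was 6.74 times the level of Tgfbr2 (negative) and 11.4 times (positive), so the BMP co-receptor and the TGF-beta receptor were further apart in the latter. Tgfbrap1, a trafficking protein named for its binding to TGF-beta receptors, was 16.2 and 32.6 (1.01), just past 2-fold.

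Among the SMADs, Smad6 (chr9:63953076-64022059, minus strand), the inhibitor whose promoter is shown above, had an FPKM of 35.7 (negative) and 104 (positive), a log2 ratio of 1.54. Smad1, the receptor SMAD of the BMP branch, was 11.9 and 24.7 (1.05). The inhibitor was therefore 3.0 times the level of the receptor SMAD in label-negative and 4.22 times in label-positive cells. Tgfb1i1 (Hic-5), a focal adhesion protein induced by TGF-beta, was 11.3 and 29.6 (1.39). Bmp2k, a kinase of endocytosis that shares only the name, was 16.8 and 10.4 (-0.70) and was the gene of this group that was lower. Smad2, Smad3, Smad4 and Smad7 had no row among the genes analysed here.

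The VEGF and angiopoietin system had 7 of 8 genes higher in label-positive cells, with a median log2 ratio of 1.58. Its receptors were at high level and close to each other. Flt4 (VEGFR3), the receptor for VEGF-C, had an FPKM of 92.8 (negative) and 287 (positive) (log2 ratio 1.63). Flt1 (VEGFR1), the receptor that traps VEGF-A and binds VEGF-B, was 53.7 and 179 (1.73). Tek (TIE2), the angiopoietin receptor, was 89.1 and 258 (1.53), and Tie1, its partner, was 89.5 and 231 (1.37). Tek over Tie1 was 0.995 (negative) and 1.11 (positive), and Flt4 over Flt1 was 1.73 and 1.6, so the balance within each pair was nearly the same in both fractions.

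The VEGF ligands did not share a direction. Vegfa, the main ligand of endothelial growth, had an FPKM of 28.3 (negative) and 12.5 (positive), a log2 ratio of -1.18. Vegfb was 14.1 and 29.7 (1.07), and Vegfc, the lymphatic growth factor, was 1.12 and 4.86 (2.11). Vegfa over Vegfb was consequently 2.0 (negative) and 0.422 (positive), and Vegfa was the 1 gene of the 8 in this system that was lower.

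The IGF system held the highest gene of the family. Igfbp7 (chr5:77349240-77408041, minus strand), a secreted protein that binds IGF weakly and is abundant in vessels, had an FPKM of 1114 (negative) and 3059.9 (positive), the second highest value of all rows in the latter. Igfbp4, an inhibitor of IGF that is cleaved by pappalysin, was 347 and 975 (log2 ratio 1.49) and ranked 24. Their ratio to each other was 3.21 (negative) and 3.14 (positive). Igf1, the growth hormone-induced ligand, was 7.53 and 26.5 (1.82). Igfbp5, a binding protein of mesenchymal cells, differed less, at 10.8 and 18.5 (0.78). Igfbp2 was at low level, 0.351 and 1.85, with the largest ratio of the group (2.40). Igf2r, the mannose-6-phosphate receptor that clears IGF2, was 10.2 and 4.89 (-1.07), the only gene of the 7 that was lower in label-positive cells. These 7 include Igf2bp2, which shares only the name.

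The FGF group was divided, with 3 genes higher and 3 lower. Fgf1, an FGF without a signal peptide that binds all FGF receptors, had an FPKM of 8.77 (negative) and 26.7 (positive) (log2 ratio 1.61), and the receptor Fgfr3 was 9.76 and 23.6 (1.27). Fgf13, an intracellular FGF homologue that binds sodium channels and not FGF receptors, was 6.19 and 0.194, the widest ratio of the family at -4.99. Fgfr1op, a centrosomal protein known from a fusion with FGFR1, was 16.9 and 8.15 (-1.05). Of the lower genes in this group only Fgf10, below an FPKM of 1 in both fractions, is a secreted ligand.

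In the PDGF group Pdgfra and the ligands Pdgfd and Pdgfc went in opposite directions, and Pdgfrb, the gene of the beta receptor, was not part of the choice. Pdgfra, the PDGF receptor of fibroblasts and stellate cells, had an FPKM of 3.47 (negative) and 0.743 (positive) (log2 ratio -2.22). Pdgfd, a ligand of the beta receptor, was 9.02 and 24.9 (1.47), and Pdgfc was also higher and of low level.

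Lists of genes that mark liver cell types were set beside these values, since the sorted fractions had been labelled as stellate cells. Of 20 listed sinusoidal endothelial genes, 19 had a row, and each of the 19 had its higher value in label-positive cells, with log2 ratios from 1.28 to 2.20 and a median of 1.45, and their summed FPKM was 4888 (negative) and 13182 (positive). Of the hepatic stellate list, 13 of 20 genes had a row, 6 were higher and 7 lower, and the sum was 171 and 127. Lrat, Des and Reln of that list had no row among those analysed here. Among the stellate genes with a row, Dcn (109 and 49.0), Lum (10.9 and 3.82) and Cygb (2.63 and 1.09) were lower in label-positive cells, whereas Hgf (17.0 and 44.1) and Rgs5 (0.75 and 3.29) were higher. Because the table lists only genes called different, the sums leave out any gene that was not called and are no measure of the cells' identity.

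Of the 37 family genes higher in label-positive cells, 25 (67.6%) had a ratio inside the endothelial range, against 1185 of the 2883 higher rows (41.1%). The 12 outside it included Tgfbr2, Igfbp5, Smad1, Vegfb, Acvrl1 and Fgfr3 below the range and Igfbp2 above it. Hepatocyte genes were also all higher (18 of 18 with a row, median log2 ratio 2.59, sum 269.5 and 2047), as were 8 of 8 mesothelial genes (median 1.47, sum 65.8 and 197) and 3 of 3 cholangiocyte genes (median 1.25). All 20 lymphocyte genes were lower in label-positive cells, with ratios from -5.92 to -3.63 and a sum of 1815 and 70.3, and so were 5 of 5 myofibroblast genes with a row (median -1.60). The macrophage list was split, 10 higher and 7 lower. No listed marker with a row was at 0 in either fraction. The part of other cells in the ratios of the family was not tested.

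**Figure D2:**
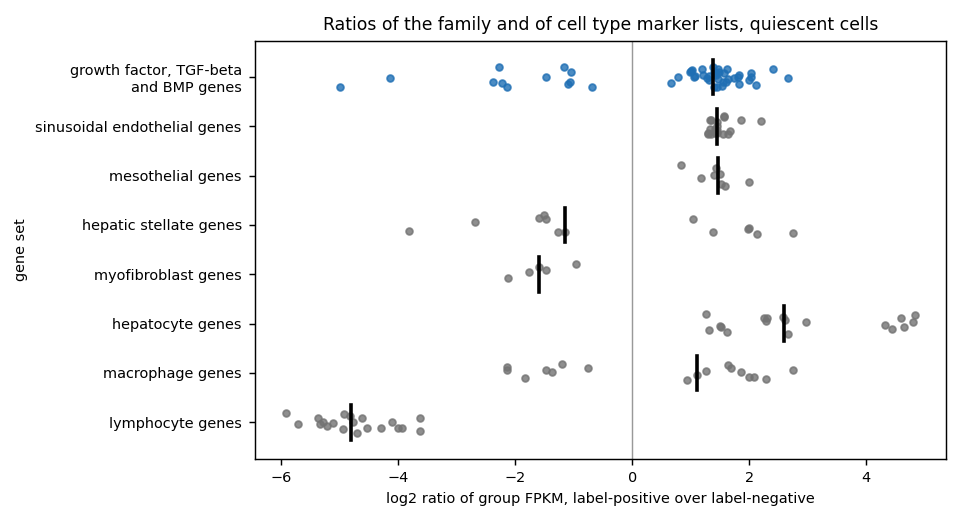
Log2 ratio of group FPKM, label-positive over label-negative qHSCs, for the family (blue) and for lists of cell type markers (grey), with 1 point per gene and a black bar at each median. The family's median of 1.37 lies close to the 1.45 of sinusoidal endothelial genes and to the 1.47 of mesothelial genes. The family's lower genes lie between -4.99 and -0.70, above or among the lymphocyte genes at -5.92 to -3.63.

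Modulators of TGF-beta and BMP outside the family had rows for 8 of 32 listed symbols, of which Hfe2 and Hjv name 1 gene. Of all protein-coding genes 21.9% had a row. Of the 8, 5 were higher and 3 lower in label-positive cells, with a median log2 ratio of 1.02. Over all rows 50.4% were higher and the median was 0.59. Lrrc32 (GARP), which anchors latent TGF-beta at the cell surface, had an FPKM of 32.6 (negative) and 91.7 (positive), and the BMP co-receptor Rgmb was 5.87 and 9.43. Thrombospondin-1 (Thbs1), an activator of latent TGF-beta, was 44.3 and 6.25 (log2 ratio -2.82), and the TGF-beta-binding proteoglycan decorin (Dcn), a gene also of the stellate list, was 109 and 49.0. Hfe2 (hemojuvelin), the BMP co-receptor of hepcidin control, was at 0.0941 and 1.29, the widest ratio of the list at 3.78. The anchor and the activator of latent TGF-beta therefore had opposite directions.

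Genes known to respond to TGF-beta or BMP had rows for 15 of 27 listed symbols, of which Ctgf and Ccn2 name 1 gene. Of the 15, 13 were higher in label-positive cells, against 50.4% of all rows, and 2 lower, with a median log2 ratio of 1.12. At 2-fold, 10 were higher and 1 lower, against 37.7% and 43.5% of all rows. The classical BMP targets Id3 and Id1 had FPKM of 220.0 and 29.7 (negative) and 447 and 69.7 (positive) (log2 ratios 1.02 and 1.23). Hes1, a Notch effector on the list, was 68.5 and 173 (1.33), and Tsc22d1, named for its stimulation by TGF-beta, was 62.2 and 118 (0.92). Snai2, a transcription factor of mesenchymal transition, was 1.56 and 5.12 (1.71). Tgif1, a corepressor of SMADs, was 63.8 and 14.3 (-2.16).

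Of 31 other ligands and receptors of receptor kinases, 18 had a row. Of these, 13 were higher, against 50.4% of all rows, and 5 lower, with a median log2 ratio of 1.33. The highest were Egfl7, an endothelial secreted factor (444 (negative) and 1082 (positive)), Kdr (VEGFR2, 272 and 848), the VEGF co-receptor Nrp1 (163 and 498) and the macrophage growth factor Csf1 (142 and 257). Egfl7 and Kdr are on the endothelial list too. Irs2, an adaptor of the insulin and IGF1 receptors, was 39.9 and 2.84 (-3.81), opposite in direction to Igf1, and the EGF receptor ligand Areg was 2.23 and 0.135 (-4.05). Genes that respond to receptor kinases had rows for 10 of 20, of which 9 were higher and 1 lower (median 1.16). Egr1 (316 and 779) and Ier3 (119 and 287) led by level and Spry4, an inhibitor of the pathway, by ratio (12.9 and 49.2, log2 ratio 1.94). The phosphatase Dusp5 was the lower gene, at 118 and 51.4, while Dusp6 was 47.2 and 72.6.

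**Figure D3:**
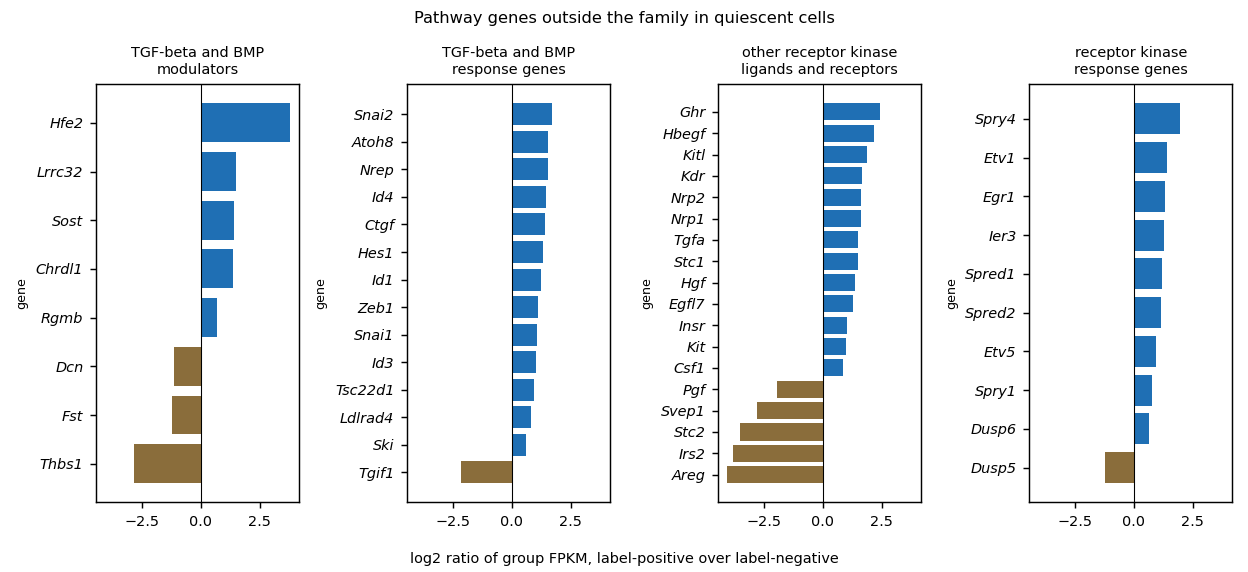
Log2 ratio of group FPKM, label-positive over label-negative qHSCs, as 1 bar per gene for 4 lists of pathway genes outside the family (blue, higher; brown, lower). In the response lists 13 of the 14 and 9 of the 10 bars drawn point to label-positive cells, and Tgif1 at -2.16 and Dusp5 at -1.20 point the other way.

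After WT1 deletion few genes of the family had a row. In GFP-high aHSCs there were 2 among 123 named rows, 1.5% of the 133 annotated family genes against 0.446% of all protein-coding genes, and both were higher in deleted cells, as were 77.2% of the named rows, while 22.8% of those rows and 0 family genes were lower. In Gdf10 (chr14:33923587-33937983, plus strand) the FPKM was 0.155 in control and 2.60 in deleted cells, a log2 ratio of 4.07 or 16.8-fold, and was thus below 3 in both groups. Pdgfrl (chr8:40926212-40990785, plus strand), a secreted PDGF receptor-like protein without a kinase, was 0.634 and 3.41 (2.43). Both are low in level, since 32.5% of named rows were lower than Gdf10 and 39.0% lower than Pdgfrl in deleted cells. Among the marker lists, the stellate gene Lum (42.6 and 136) and the myofibroblast genes Postn (7.10 and 41.1) and Mmp2 (16.9 and 91.4) were higher too, as was the hepatocyte gene Cps1 (0.233 and 1.20), and no endothelial, macrophage or lymphocyte gene of the lists had a row.

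In GFP-intermediate aHSCs 5 of the 419 named rows belonged to the family, 3.76% of its annotated genes against 1.74% of all protein-coding genes. With WT1 deleted 2 were higher (37.2% of named rows were) and 3 lower (62.8%). All named rows of both deletion tables were at least 2-fold apart, so that limit adds nothing. Angptl4 (chr17:33773750-33781830, minus strand), a lipoprotein lipase inhibitor of the angiopoietin-like family that does not bind TIE2, measured 30.4 in control and 89.0 in deleted cells (log2 ratio 1.55). Pdgfra (chr5:75152292-75198215, plus strand) was 18.8 and 43.4 (1.20). These were the higher genes, and the 3 lower ones were all secreted ligands. Pdgfb (chr15:79995874-80014977, minus strand), the main ligand of the PDGF beta receptor, was 21.7 in control and 7.72 in deleted cells (-1.49). Gdf15 (chr8:70629393-70632456, minus strand), a stress-induced ligand, was 22.5 and 7.50 (-1.58), and Gdf3 (chr6:122605403-122610087, minus strand) was 9.87 and 2.25 (-2.13).

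Pdgfb and Pdgfra thus had opposite directions in these cells, while Pdgfrb had been left out of the choice. Macrophage genes moved with the lower ligands: 12 of 20 had a row, all 12 were lower in deleted cells, with log2 ratios from -2.36 to -1.42, and their summed FPKM was 5469 in control and 1375 in deleted cells. Both endothelial genes with a row were lower as well (Stab1, 120.4 and 30.8; Cdh5, 17.9 and 8.09). Of 5 stellate genes, 4 were higher (Rgs5, Lum, Colec11 and Cygb) and Hgf was lower (9.45 and 3.35), and the 3 myofibroblast genes were higher, with a sum of 61.2 and 176. The 3 cholangiocyte genes with a row were higher too (Cldn4, 1.14 and 8.62; Epcam, 1.30 and 5.70; Sox9, 1.67 and 4.69), as was the hepatocyte gene Car3 (1.97 and 14.2), and the lymphocyte gene Gzma was lower (9.93 and 3.05). The part of macrophages or other cells in the values of the 5 family genes was not tested.

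**Figure D4:**
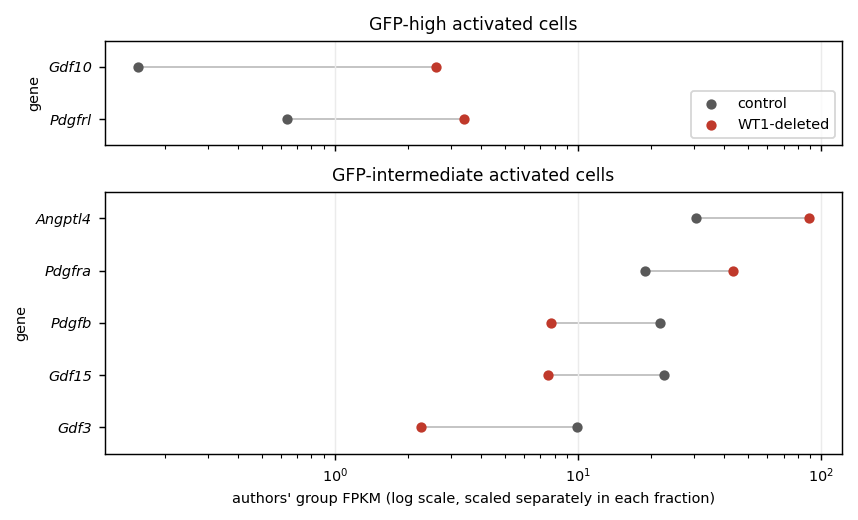
Authors' group FPKM (log axis) in control (grey) and WT1-deleted (red) aHSCs for the 2 family genes of the GFP-high table and the 5 of the GFP-intermediate table, 1 value per group. Gdf10 is the farthest apart at 0.155 and 2.60, and in GFP-intermediate cells Angptl4 and Pdgfra lie to the right in deleted cells and Pdgfb, Gdf15 and Gdf3 to the left.

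Pathway genes outside the family were also listed in the deletion tables. In GFP-intermediate cells a row was held by 2 of 32 listed modulators and 3 of 27 listed TGF-beta or BMP response genes. The same held for 3 of 31 receptor kinase ligands and receptors and 2 of 20 receptor kinase response genes. Of all protein-coding genes 1.74% had a row there, and 0.446% had one in GFP-high cells. In GFP-high cells Lrrc32 (2.05 in control and 5.02 in deleted cells) and Svep1, a matrix protein that binds TIE1 (0.551 and 2.88), had a row and no response gene did. In GFP-intermediate cells Neo1, a receptor for RGM proteins, was 14.2 and 36.5. Of the response genes, Ctgf (11.5 and 31.7), Atoh8 (5.54 and 15.8), Ier3 (187 and 467) and Spry4 (6.58 and 15.8) were higher in deleted cells, and Zeb2, in a row shared with Mir5129, was lower (61.3 and 28.2). Pappa, the protease that cleaves IGFBP4, was 1.5 and 6.61 (log2 ratio 2.14), and the macrophage receptor Csf1r was 269 and 100.2.

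Gdf10 and Pdgfra, the genes listed in a quiescent and an activated table, are given side by side. Gdf10 was 2.73 (negative) and 0.561 (positive) in qHSCs, and 0.155 in control and 2.60 in deleted GFP-high aHSCs. Pdgfra was 3.47 and 0.743 in the former comparison, and 18.8 and 43.4 in control and deleted GFP-intermediate aHSCs. The quiescent and activated comparisons share no samples and no scale. Lum and Mmp2 of the stellate and myofibroblast lists also had lower values in label-positive qHSCs and higher values after WT1 deletion in both aHSC fractions, which share animals. Cygb and Lox were lower in label-positive qHSCs and higher after deletion in GFP-intermediate cells. Rgs5 and Colec11 were higher in both of these comparisons. Hgf was higher in label-positive qHSCs and lower after deletion in GFP-intermediate cells. The part of a shift in cell makeup in the values of Gdf10 and Pdgfra was not tested.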

How the data were processed

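RNA from 16 samples in 6 groups, assigned by their labels, was sequenced on an Illumina HiSeq. Mapping was by bowtie 2 and the authors called genes with Cuffdiff2, keeping those whose adjusted p-value was under 0.05. The submitters' processing notes name TopHat2 2.0.3, Cufflinks 2.0.1 and DESeq2, and list both mm9 and mm10, so which build the values rest on is not settled. Coordinates are those of GENCODE vM21 (GRCm38), matched by symbol. The authors deposited FPKM, 1 value for each group of a called gene that stands for all its replicates, no value per sample was used, and depth and precision are unknown. Reads of overlapping genes can be split differently by Cuffdiff2, and every row of the family names 1 gene. Deposited comparison tables hold the same FPKM with fold changes, p-values and q-values of the authors, which were not used. The labels give male animals, whereas the methods give female animals for quiescent cells.

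The log2 ratio of group FPKM was computed without a pseudocount, and at least 2-fold was counted. Tests planned for values per sample could not be made. The genes, lists and limits were chosen with earlier results of these data known. Named were all family genes of the deletion tables, quiescent genes that reached an FPKM of 10 in the higher fraction or, with an FPKM of 1 or more there, an absolute log2 ratio of 2, genes in more than 1 table and, from each pathway list, at most the 4 of highest FPKM and the 2 of largest ratio. Fgf10, Pdgfc, Bmp1, Igf2bp2, the pathway genes Ctgf and Atoh8, and single marker genes were named after their values were seen. Values of 2 pathway genes that are part of the list counts are not reported here. Promoters came from RefSeq. The share of windows whose first 20 transcribed bases matched a GENCODE transcript in the sense direction was 40 of 51, and 0 matched in antisense. Counting was tested on simulated tables. Python 3.11.15, pandas 2.3.3, numpy 2.4.6 and matplotlib 3.10.9 were used.

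Alternatives were limits of 1.5-fold and 4-fold, an FPKM of at least 1, pseudocounts of 1 and 0.1, rows that name 1 gene, centring on the median ratio and, added after the data were seen, leaving out the 10 genes that share only the name.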

Additional observations from a re-analysis of the deposited data

How the results depend on the processing

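Only centring could change the direction of a gene, because the other alternatives leave the sign of a ratio as it is. After centring no gene of the family changed direction. In qHSCs this was nearly fixed in advance, because only a ratio between 0.55 and 0.59 could have changed sign. The smallest ratio among all higher rows there was 0.55. In qHSCs the 34 genes at least 2-fold higher became 5 at a limit of 4-fold and 13 after centring on the median of all rows, and the 11 at least 2-fold lower became 6 at 4-fold and 6 with a pseudocount of 1. Without the 10 genes that share only the name, 7 rather than 12 quiescent genes were lower, and all 7 were at least 2-fold lower. In GFP-high cells the 2 genes at least 2-fold higher became 1 after centring and 1 without the genes that share only the name. In GFP-intermediate cells 0 genes were higher and 1 lower at 4-fold, 0 lower at 2-fold after centring, and 1 higher without the genes that share only the name. The other counts stayed within 1.5 times. The medians used for centring are those of the listed genes alone, so the counts after centring are no correction for a shift in scale. Pseudocounts of 1 and 0.1 moved 14 and 3 of the 56 ratios by more than 1.5-fold. Centring, which shifts every ratio of a comparison equally, moved all 56. No paired analysis was possible because each group has 1 value, and for the same reason no replicate could be left out. Low levels cannot be told from counting error, since depth is unknown.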
